A study of Arabidopsis thaliana with 6 samples.

Results

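The genes described are the conserved plant microRNA genes of Arabidopsis thaliana. They were taken by symbol from a RefSeq gene table: MIR156, MIR157, MIR159, MIR160, MIR162, MIR164, MIR165, MIR166, MIR167, MIR168, MIR169, MIR171, MIR172, MIR319, MIR390, MIR393, MIR394, MIR395, MIR396, MIR397, MIR398, MIR399, MIR403 or MIR408, with any letter after the number. This rule gave 92 genes of 24 family symbols, out of 326 microRNA genes and 37899 nuclear genes in the table. The symbol rule itself uses no binding value, but it was set with earlier results of these data known. SEPALLATA3 (SEP3), a MADS-domain transcription factor of floral organ identity, was mapped by ChIP-seq in inflorescences, labelled as floral cells, using an antibody to native SEP3. All plants were of the sep1,2,3 background and carried a SEP3 transgene under the SEP3 promoter, either wild-type SEP3 (pSEP3:SEP3wt;sep1,2,3) or a SEP3 that cannot form tetramers (pSEP3:SEP3tet;sep1,2,3). Each line had 2 ChIP samples and 1 mock sample made with pre-immune serum, 6 samples in all. The data used were 1 deposited peak list per line, with 2225 peaks in SEP3wt and 3601 in SEP3tet, and positions are given on build TAIR10. The mock libraries were not analysed here. How many independent transgenic events stand behind each line and how many reads each library had are not stated in the sources used here.

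A microRNA gene is transcribed by RNA polymerase II into a long precursor with a hairpin, from which DCL1 and its partners cut the mature microRNA. The mature microRNA guides AGO1 to matching messenger RNAs, which are then cut or kept from translation. The conserved families mostly target transcription factors of phase change, organ polarity and organ growth, or enzymes of nutrient and copper use. In the flower, miR172 limits AP2 and its relatives, miR167 limits ARF6 and ARF8, and miR319 limits TCP genes. The gene table holds the hairpin region, not the long precursor, so distances below are from the hairpin gene. It gives no strand, and upstream and downstream could not be told apart.

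A microRNA gene counted as bound in a line where the summit of a called peak, the base of highest signal, fell inside the gene or no more than 3 kb from it. By this rule 21 of 92 conserved microRNA genes were bound in SEP3wt (22.8%, exact 95% interval 14.7 to 32.8) and 35 in SEP3tet (38.0%, 28.1 to 48.8). The same rule called 13.7% of 27444 protein-coding genes in SEP3wt and 21.2% in SEP3tet. Among the other 234 microRNA genes of the table it called 8.12% in SEP3wt and 12.4% in SEP3tet. The share of conserved microRNA genes was thus above both backgrounds in each line, and no test of these differences was made. Intervals cover counting error over genes only, and genes that share a window are not independent.

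Gene length adds to the window of a protein-coding gene, whose median length was 2080 bp against 124 bp for the conserved microRNA genes. With every window set to 3 kb on either side of the gene midpoint, the microRNA counts stayed at 21 and 35, beside 10.1% and 15.8% of protein-coding genes. With a window of 1 kb from the gene edges, 7 microRNA genes were bound in SEP3wt, 7.61%, near the 7.79% of protein-coding genes. In SEP3tet 15 were bound within 1 kb, 16.3% beside 12.3%. Gene length still widens the windows of protein-coding genes in this setting. Of the other microRNA genes, 1.71% in SEP3wt and 4.7% in SEP3tet had a summit within 1 kb. The 92 genes formed 78 loci with separate windows, of which 21 had a SEP3wt and 32 a SEP3tet summit.

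**Figure D1:**
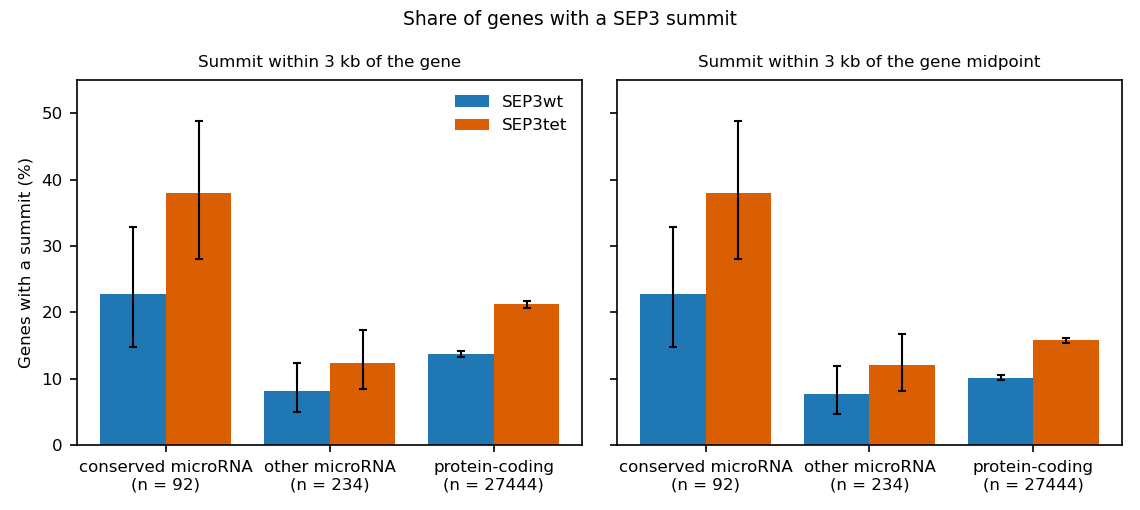
Percentage of conserved microRNA genes, other microRNA genes and protein-coding genes with a summit in SEP3wt (blue) and SEP3tet (orange), with the window drawn from the gene edges (left) or from the gene midpoint (right). Bars start at 0 and whiskers are exact 95% intervals over genes; the conserved microRNA genes stand at 22.8% and 38.0% in both panels.

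Most microRNA genes bound by wild-type SEP3 were also bound by SEP3tet. In all, 20 genes were bound in both lines, 1 in SEP3wt only (MIR156b) and 15 in SEP3tet only, against 12.4%, 1.3% and 8.79% of protein-coding genes. The 20 genes were 95.2% of those bound in SEP3wt and 57.1% of those bound in SEP3tet. For protein-coding genes the corresponding shares were 90.5% and 58.5%, so the division between the lines was near that of all genes. For each of the 20 genes the strongest SEP3wt peak overlapped a SEP3tet peak. When both lists were held to their 2225 strongest peaks by −log10 q, 25 genes were bound in SEP3tet, 27.2% beside 14.6% of protein-coding genes. In SEP3wt the 21 genes stayed, 22.8% beside 13.7%. Only 5 genes were then left as SEP3tet only, MIR166a, MIR390a, MIR398b, MIR399a and MIR399c. Of these, MIR398b was kept at the cut itself, a −log10 q of 5.21. The SEP3tet-only share of protein-coding genes at this cut was not taken. Since replicates have no values of their own, the spread between them is unknown, and folds of different lists are given side by side without comparison.

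The 25 SEP3wt peaks had a median fold enrichment of 3.59 (2.20 to 7.50), beside 3.38 for the whole SEP3wt list. Fold enrichment, as the authors' peak caller gave it, is ChIP signal at the summit over background. The 40 SEP3tet peaks had a median of 4.35 (2.60 to 10.8), beside 3.65 for the whole SEP3tet list. Their median −log10 q was 6.61 in SEP3wt, beside 5.54 for the list, and 9.50 in SEP3tet, beside 6.35. Their median width was 218 bp in SEP3wt, beside 262 bp for the list, and 330 bp in SEP3tet, beside 282 bp. Counted per gene by its strongest peak, the median was 3.65 over the 21 genes bound in SEP3wt, beside 3.59 over bound protein-coding genes, and 4.37 over the 35 bound in SEP3tet, beside 3.89.

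Their place relative to protein-coding genes differed from the list as a whole. Only 3 of the 25 SEP3wt peaks (12.0%) had their summit inside a protein-coding gene, against 45.3% of all SEP3wt peaks, and 7 of the 40 SEP3tet peaks (17.5%), against 39.8%. How much of these windows lies in protein-coding genes was not measured. The difference is a description, and its cause was not tested. Peaks wider than 1 kb numbered 0 of 25 in SEP3wt, beside 174 of 2225 in the whole list. In SEP3tet they numbered 2 of 40, at MIR159a and MIR164b, beside 136 of 3601.

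**Figure D2:**
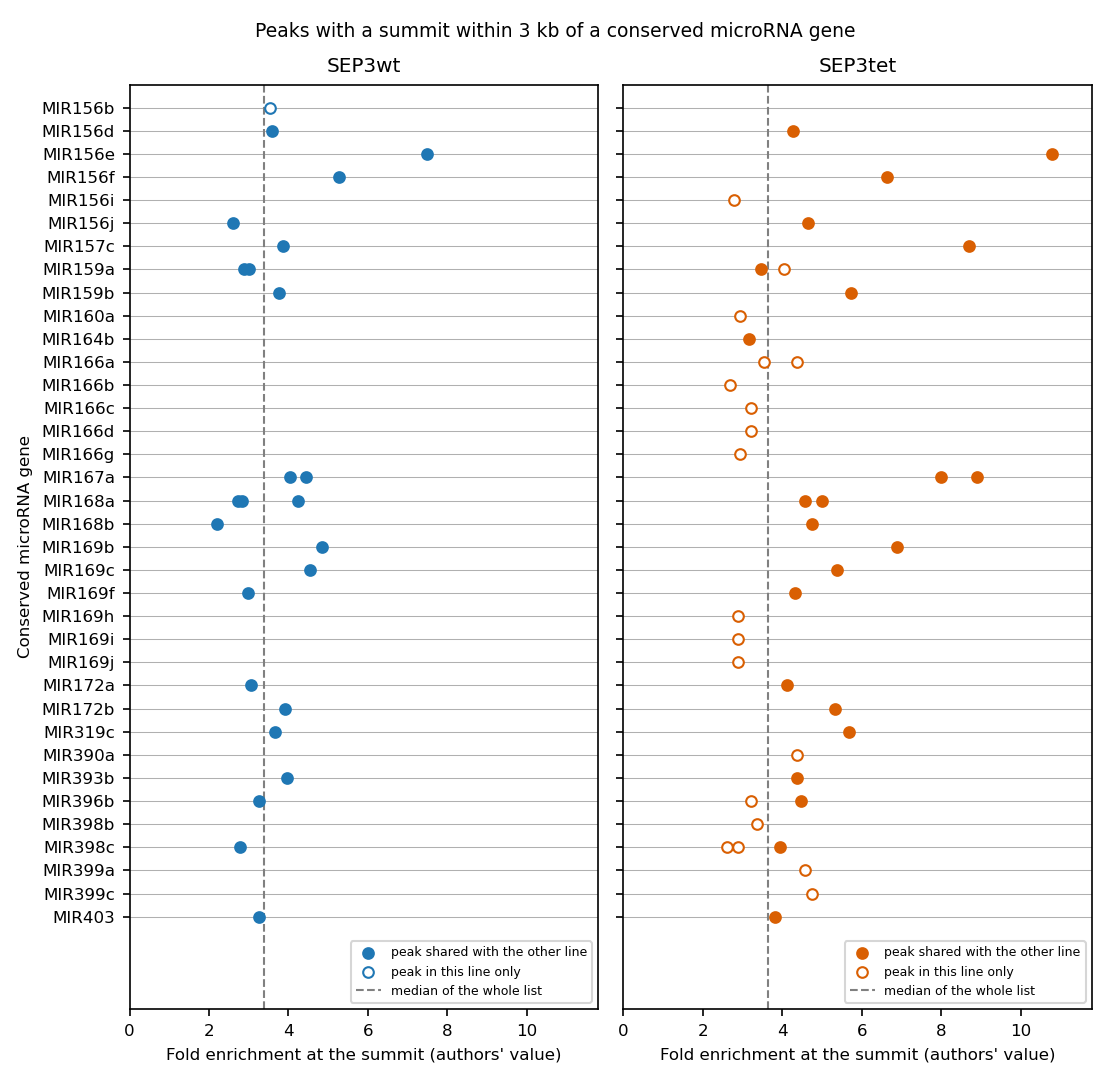
Fold enrichment (authors' value, horizontal axis) of every peak with its summit within 3 kb of a conserved microRNA gene, 1 row per gene, for SEP3wt (left) and SEP3tet (right). Filled points are peaks that overlap a peak of the other line and open points are peaks of 1 line; the dashed line is the median of the whole list, 3.38 and 3.65, and MIR156e lies farthest right in both panels.

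The miR156 and miR157 genes, whose products hold plants in the juvenile phase by limiting SPL transcription factors, held the strongest peak of the set. Of 10 MIR156 genes 6 had a summit in either line, and of 4 MIR157 genes 1 did. Over all 92 conserved microRNA genes the either-line share was 39.1%, and over protein-coding genes 22.5%. MIR156e (AT5G11977) had a fold of 7.50 in SEP3wt (−log10 q 31.5; chromosome 5, 3865486 to 3865924) and of 10.8 in SEP3tet (−log10 q 51.4; 3865336 to 3865983). It ranked 67 of 2225 in SEP3wt and 10 of 3601 in SEP3tet. The summit lay 1 to 3 kb from the hairpin on the side of lower coordinates, and MIR156e was its nearest annotated gene in both lines.

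MIR156f (AT5G26147) reached 5.28-fold in SEP3wt (chromosome 5, 9133204 to 9133498) and 6.64-fold in SEP3tet. Its summit lay near the outer edge of the 3-kb window, and the cytokinin-activating gene LOG9 was nearer. MIR157c (AT3G18217) had a fold of 3.86 in SEP3wt, rank 775, and of 8.71 in SEP3tet, rank 68 (chromosome 3, 6246165 to 6246777). That summit lay inside the lncRNA gene AT3G03645. MIR156d (AT5G10945) had folds of 3.59 and 4.28 in SEP3wt and SEP3tet, 1 to 3 kb from the gene, with AT5G10946 nearer.

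For another group of miR156 genes the neighbour was itself a miR156 target. The MIR156j peak lay in the body of SPL9, a promoter of the adult phase and flowering, with a fold of 2.60 in SEP3wt and 4.66 in SEP3tet (chromosome 2, 17587134 to 17587561). The MIR156i peak, called in SEP3tet only, was nearest to SPL4 and weak (fold 2.78, −log10 q 2.67). In both cases 1 peak counted for the microRNA gene and for the SPL gene. MIR156b (AT4G30972), the single SEP3wt-only gene, had a fold of 3.54 (−log10 q 6.61; chromosome 4, 15075644 to 15075824). Its summit lay within 1 kb, in the body of the ncRNA gene AT4G30975. MIR156a, MIR156c, MIR156g, MIR156h, MIR157a, MIR157b and MIR157d had no summit in the window in either line.

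In the miR172 family, which limits AP2 and the TOE genes during flowering and organ identity, MIR172a and MIR172b were bound in both lines and MIR172c, MIR172d and MIR172e in neither. MIR172b (AT5G04275) had folds of 3.92 in SEP3wt (chromosome 5, 1187192 to 1187830) and 5.34 in SEP3tet (1187301 to 1187886). The summit lay within 1 kb on the side of lower coordinates, with MIR172b as its nearest gene. MIR172a (AT2G28056) had folds of 3.05 in SEP3wt (chromosome 2, 11941136 to 11941275) and 4.13 in SEP3tet, 1 to 3 kb from the gene and nearest to the lncRNA gene AT2G08215.

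Among microRNA genes of the auxin pathway, MIR167a had the strongest peaks and lay between 2 of them. miR167 limits ARF6 and ARF8, activating auxin response factors needed for stamen and petal maturation. MIR167a (AT3G22886) had folds of 4.03 (−log10 q 9.01) on the lower-coordinate side and 4.45 (−log10 q 13.2) on the other in SEP3wt (chromosome 3, 8106199 to 8106471 and 8109299 to 8109728). In SEP3tet the folds were 7.99 and 8.90, ranks 114 and 59 in that list. All these summits lay 1 to 3 kb away with MIR167a as nearest gene. MIR167b, MIR167c and MIR167d had none.

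miR393 limits the auxin receptor genes TIR1, AFB2 and AFB3. MIR393b (AT3G55734) was bound in both lines, with folds of 3.97 in SEP3wt (chromosome 3, 20689422 to 20689932) and 4.37 in SEP3tet. The peaks overlapped, but their summits were more than 100 bp apart. MIR393a had no summit. miR390 starts the making of trans-acting small RNAs from TAS3, and MIR390a (AT2G38325) was bound in SEP3tet only (fold 4.37, −log10 q 9.50; chromosome 2, 16061007 to 16061216), within 1 kb and as nearest gene. MIR160a (AT2G39175), whose product limits ARF10, ARF16 and ARF17, had a weak SEP3tet-only peak (fold 2.93, −log10 q 3.14). Its summit lay in the lncRNA gene AT2G09010. MIR390b, MIR160b and MIR160c had no summit in the window.

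The miR165 and miR166 genes limit the class III HD-ZIP genes of the adaxial (upper) organ side, among them PHB, PHV and REV. Of 7 MIR166 genes, 5 were bound in SEP3tet and 0 in SEP3wt, and both MIR165 genes were bound in neither. MIR166a (AT2G46685) had SEP3tet-only peaks on either side, with folds of 4.37 (−log10 q 9.50; chromosome 2, 19174693 to 19175027) and 3.55 (19177200 to 19177703). MIR166a was the nearest gene of both.

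The other MIR166 peaks were weaker. MIR166c and MIR166d shared 1 SEP3tet peak (fold 3.22, −log10 q 4.67; chromosome 5, 2840258 to 2840513), within 250 bp of MIR166d. MIR166g had a fold of 2.93 within 250 bp, and MIR166b one of 2.69 (−log10 q 2.67) within 1 kb. With only the 2225 strongest peaks of each list, of these MIR166 genes only MIR166a was still bound in SEP3tet only. MIR166e had peaks of both lines between 3 and 5 kb away, with folds of 4.08 in SEP3wt and 3.22 in SEP3tet, outside the window. MIR166f had no summit in the window.

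Genes of organ growth and boundary microRNAs had 1 bound copy in most families. miR319 limits CIN-type TCP genes of leaf and petal growth, miR396 limits the growth-regulating factor (GRF) genes, miR164 limits the CUC boundary genes, and miR159 limits GAMYB-like genes of the anther. MIR319c (AT2G40805) had folds of 3.65 in SEP3wt (chromosome 2, 17032062 to 17032262) and 5.67 in SEP3tet, with the autophagy gene ATG18C nearer to the summit. MIR319a and MIR319b had none.

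MIR396b (AT5G35407) had a peak in both lines, with folds of 3.27 in SEP3wt (chromosome 5, 13614248 to 13614444) and 4.47 in SEP3tet, and a SEP3tet-only peak within 1 kb (fold 3.22). MIR396b was the nearest gene of each of these summits. MIR396a had none. MIR164b was bound in SEP3tet only (fold 3.15), with the summit in the body of AT5G01750. The SEP3wt summit of the same region (fold 3.16) lay just beyond 3 kb, so this call rests on the window. MIR164a and MIR164c had none.

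MIR159a (AT1G73687) and MIR159b (AT1G18075) were bound in both lines. MIR159a had 2 SEP3wt peaks, with folds of 3.00 and 2.89, and 2 SEP3tet peaks, with folds of 4.04 and 3.46. The summits of fold 3.00 and 3.46 lay nearer to AT1G09865. The SEP3tet peak of fold 4.04 (chromosome 1, 27713251 to 27713789) lay within 250 bp of the hairpin gene and was not called in SEP3wt. MIR159b had folds of 3.76 in SEP3wt (chromosome 1, 6219383 to 6219738) and 5.72 in SEP3tet, in the lncRNA gene AT1G05373. MIR159c had summits of both lines between 3 and 5 kb away, with folds of 3.27 and 2.83 in SEP3wt and SEP3tet.

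Both genes of miR168, which limits AGO1, the effector of the microRNA pathway itself, were bound in both lines. MIR168a (AT4G19395) had 3 SEP3wt summits with folds of 4.24, 2.83 and 2.72, and 2 SEP3tet summits with folds of 5.00 and 4.57, all on the side of higher coordinates. The peak of fold 4.24 (chromosome 4, 10580151 to 10580455) was nearest to AT4G19400. MIR168b (AT5G45307) had a summit within 250 bp in each line, with a fold of 4.76 in SEP3tet (chromosome 5, 18358866 to 18359275) and of 2.20 in SEP3wt. The SEP3wt peak, at a −log10 q of 1.71, was among the weakest of its list, rank 2207 of 2225. MIR403 (AT2G47275), whose product limits AGO2, had a summit within 250 bp in both lines, with folds of 3.27 in SEP3wt (chromosome 2, 19415243 to 19415458) and 3.81 in SEP3tet. MIR162a and MIR162b, whose product limits DCL1, had none.

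miR169 limits NF-YA genes of stress and nitrogen response. In either line 6 of its 14 genes were bound, near the 39.1% of all conserved microRNA genes. MIR169b (AT5G24825), MIR169c (AT5G39635) and MIR169f (AT3G14385) were bound in both. MIR169c had a fold of 4.54 in SEP3wt (−log10 q 12.2; chromosome 5, 15871587 to 15871895) and of 5.39 in SEP3tet, within 1 kb and as the nearest gene. MIR169b had folds of 4.84 in SEP3wt (chromosome 5, 8529365 to 8529639) and 6.88 in SEP3tet, with AT5G24830 nearer.

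The remaining miR169 calls lay in other genes. The MIR169f summits, with folds of 2.99 and 4.33, were in the body of AT3G14380, and the MIR169h summit (SEP3tet only, fold 2.88) in that of AT1G19380. MIR169i and MIR169j, part of a cluster of 6 genes, shared 1 weak SEP3tet-only peak (fold 2.88) inside AFB2, an auxin receptor gene and target of miR393. MIR169a, MIR169d, MIR169e, MIR169g, MIR169k, MIR169l, MIR169m and MIR169n had none.

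Among the nutrient and copper families, miR398 limits copper superoxide dismutase genes and miR399 limits PHO2, a repressor of phosphate uptake. MIR398b (AT5G14545) and MIR398c (AT5G14565) each had a SEP3tet-only summit within 250 bp on the side of lower coordinates. The folds were 3.36 for MIR398b (chromosome 5, 4690669 to 4690993) and 2.88 for MIR398c (4694358 to 4694635). The protein-coding gene AT5G14550 was nearer to the MIR398b summit, whereas MIR398c was the nearest gene of its own. MIR398c counted as bound in both lines through another peak, inside AT5G14580, with folds of 2.78 in SEP3wt and 3.94 in SEP3tet.

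MIR399a (AT1G29265) and MIR399c (AT5G62162) were bound in SEP3tet only, with folds of 4.57 (chromosome 1, 10228676 to 10229008) and 4.76 (chromosome 5, 24963928 to 24964140). The summit counted for MIR399a was nearer to AT1G29270, and that for MIR399c to AGL42, a MADS-box relative of SOC1. MIR398a, MIR399b, MIR399d, MIR399e and MIR399f had none. The 6 MIR395 genes of sulfate assimilation, which sit in 2 clusters, the laccase regulators MIR397a and MIR397b and the copper-responsive MIR408 had no summit in either line. The same held for MIR171a, MIR171b and MIR171c, whose product limits the HAM genes of the meristem, and for MIR394a and MIR394b. In all 7 of the 24 family symbols had no bound gene. A missing peak means that none was called, at a depth that is unknown here.

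No summit lay in a hairpin gene itself, and most lay over 1 kb away. The zones of 1 to 3 kb make up most of each window, and the hairpin gene (median 124 bp) a small part. Summits spread evenly over the windows would also lie mostly in these zones. Whether their positions differ from an even spread was not tested. Of 25 pairs of a gene and a SEP3wt summit, 17 were 1 to 3 kb apart, 6 lay beyond 250 bp but within 1 kb and 2 within 250 bp. Of 42 pairs in SEP3tet, 26 were 1 to 3 kb apart, 9 lay beyond 250 bp but within 1 kb and 7 within 250 bp. The sides were even, with 11 SEP3wt summits on the lower-coordinate side and 14 on the higher, and 21 on each in SEP3tet. The microRNA gene was the nearest annotated gene for 10 of the 25 pairs in SEP3wt and 18 of the 42 in SEP3tet.

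Counted by nearest gene, 9 conserved microRNA genes were bound in SEP3wt (9.78%, beside 6.17% of protein-coding genes) and 15 in SEP3tet (16.3%, beside 9.71%). The 9 genes were MIR156e, MIR159a, MIR167a, MIR168b, MIR169c, MIR172b, MIR393b, MIR396b and MIR403, and all were among the 15. SEP3tet added MIR166a, MIR166b, MIR166d, MIR166g, MIR390a and MIR398c. For 6 microRNA genes every summit in the window lay in the body of another, protein-coding gene.

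**Figure D3:**
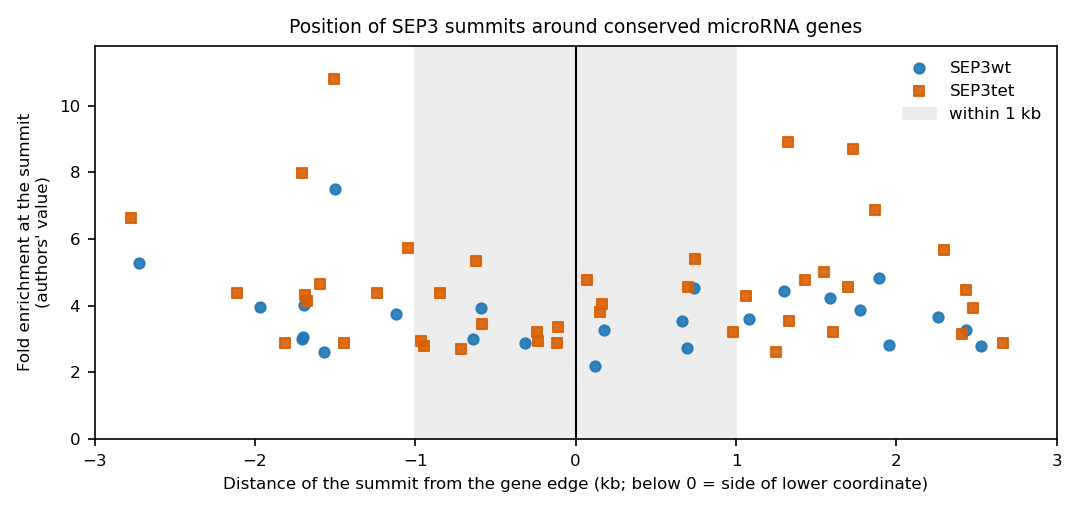
Distance of each summit from the edge of the conserved microRNA gene in kb (horizontal axis; below 0 is the side of lower coordinate, the strand being unknown here) against the authors' fold enrichment, for SEP3wt (circles) and SEP3tet (squares). Within the shaded 1 kb on either side no fold exceeds 5.39, while MIR156e, at 10.8 in SEP3tet, lies 1 to 3 kb away.

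To set the microRNA genes beside the genes their products act on, 90 textbook targets of 22 families were counted by the same 3-kb rule, with miR156 and miR157 taken as 1 family, and likewise miR165 and miR166. Of these targets 35 were bound in SEP3wt (38.9%, beside 13.7% of protein-coding genes) and 48 in SEP3tet (53.3%, beside 21.2%), with 32 in both. Most are well-known developmental regulators. The list was not chosen independently of earlier results on SPL, TCP, GRF and AP2 genes in these data, so its share supports nothing by itself.

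In SEP3wt 11 of 22 families had a bound microRNA gene and 15 a bound target. The 7 with both were miR156 with miR157, miR167, miR169, miR172, miR319, miR393 and miR396. Another 4 had only a bound microRNA gene, 8 only a bound target and 3 neither. In SEP3tet 16 families had a bound microRNA gene, 17 a bound target, and 13 both, with 3, 4 and 2 in the other classes. With so many families bound, overlap also arises where microRNA genes and targets are bound independently. Whether the overlap exceeds that was not tested, and the list of families is a description. For miR159 and miR403 the microRNA gene was bound in both lines and no listed target in either, 0 of 8 for miR159 and 0 of 1 for miR403. For miR171, miR395 and miR397 at least 1 target was bound in each line and no microRNA gene in either. For miR394 and miR408 nothing was bound.

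**Figure D4:**
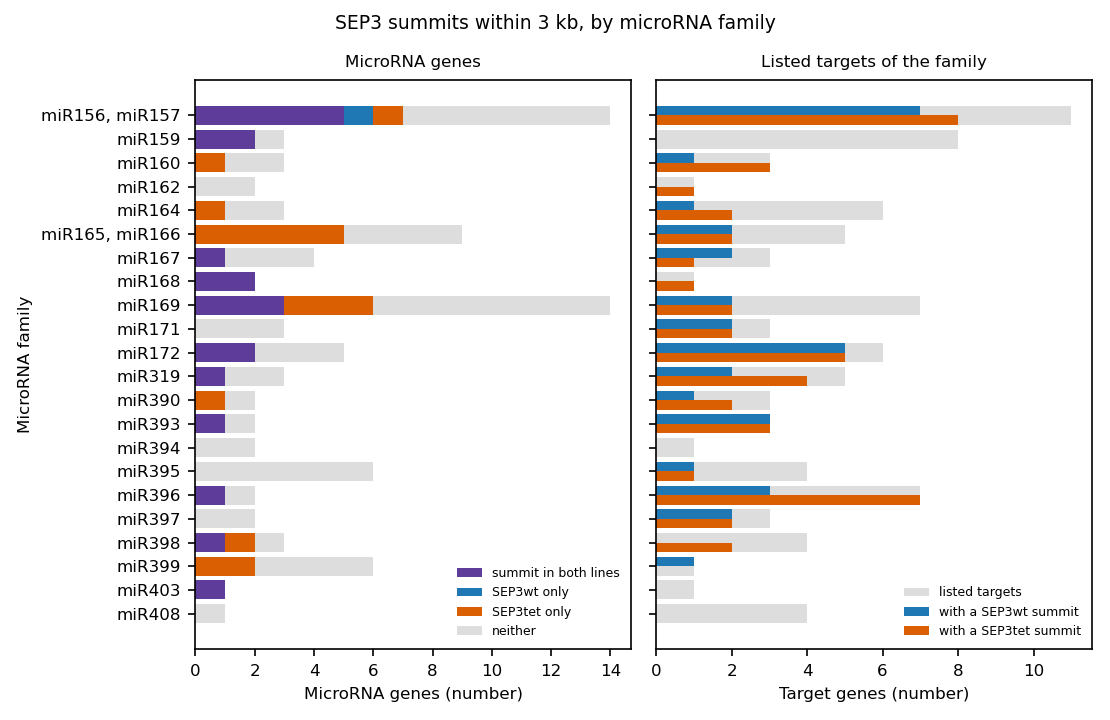
Number of microRNA genes per family (left) by the line in which a summit lay within 3 kb, and number of listed targets per family (right, grey) with a SEP3wt (blue) or SEP3tet (orange) summit. The miR156 and miR157 family has 14 microRNA genes, 5 of them bound in both lines, and miR165 and miR166 has 5 bound in SEP3tet only.

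The target peak of highest fold in each line was that of a miR172 target. TOE3, an AP2-like repressor of flowering, had folds of 9.24 in SEP3wt and 11.7 in SEP3tet, and 5 of 6 miR172 targets were bound in each line, all but TOE2. AFB2 had folds of 8.16 and 8.71, and all 3 miR393 targets were bound in both. SPL5 of the miR156 targets had folds of 6.91 and 8.04, with 7 of 11 bound in SEP3wt and 8 in SEP3tet.

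HAM1, a meristem maintenance gene limited by miR171, had folds of 6.35 in SEP3wt and 9.29 in SEP3tet. NF-YA2 of miR169 had folds of 6.47 and 7.84, and TCP3 of miR319 folds of 5.66 and 6.78. ARF16 of miR160 had folds of 4.41 and 6.06, and GRF2 of miR396 folds of 4.57 and 7.81. All 7 GRF targets were bound in SEP3tet and 3 of them in SEP3wt.

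For miR167, ARF8 was bound in SEP3wt only (fold 3.92), while ARF6 had folds of 2.45 in SEP3wt and 4.04 in SEP3tet. For miR165 and miR166, PHB had the higher fold of the bound targets in SEP3wt, 3.27, and PHV in SEP3tet, 5.63. The miR399 target PHO2 was bound in SEP3wt only and weakly (fold 2.45, −log10 q 1.71), whereas MIR399a and MIR399c were bound in SEP3tet only.

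NAC080 of miR164 had folds of 3.97 in SEP3wt and 3.94 in SEP3tet. The trans-acting small RNA gene TAS3 of miR390 had 3.27 and 4.76, the sulfurylase gene APS4 of miR395 had 3.10 and 2.74, and the laccase gene LAC2 of miR397 had 2.83 and 3.60. COX5B-1 of miR398 was bound in SEP3tet only (fold 3.75). The strongest peaks of TOE3, AFB2, SPL5, ARF16, NAC080, APS4, LAC2, COX5B-1 and the miR168 target AGO1 lay nearest to a neighbouring gene.

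Genes of the microRNA machinery were counted by the same rule. Of 17 such genes, 0 had a SEP3wt summit within 3 kb, beside 13.7% of protein-coding genes, and 4 had a SEP3tet summit (23.5%, beside 21.2% of protein-coding genes), a SEP3tet share near the background. The 4 were DCL1, the nuclease that cuts the hairpin (fold 2.98), and the Argonaute genes AGO1 (4.08), AGO7 (3.75), the partner of miR390, and AGO10 (4.13), which holds miR166 away from AGO1. The AGO1 peak lay 1 to 3 kb from AGO1 and nearest to the neighbouring gene D-CDES. AGO1 and DCL1 are also the targets of miR168 and miR162. The hairpin-processing genes HYL1 and SE, the methyltransferase gene HEN1, the export gene HST and the others of the list had none.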

How the data were processed

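The authors deposited a single peak list for each line. Build TAIR10 and the tools MACS2 2.2.7.1, Bowtie2 2.2.5, Trimmomatic 0.36 and deepTools come from the submitters' processing notes. The role of the replicates and of the mock samples in peak calling is not stated in the sources used here. The deposited fold enrichment is a ratio of signal at the summit to background, and the deposited −log10 q is that of the peak caller. The deposited score repeats the −log10 q, multiplied by 10 and cut to a whole number, and was not used. Each fold describes or ranks a peak within its own list only.

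Gene names and neighbourhoods came from a RefSeq table of assembly TAIR10.1 without strand; no coordinates of it are printed, and peak positions are on TAIR10, counted from 1. To check that both builds can be used together, summits were shifted by 10 distances: 45.3% (SEP3wt) and 39.8% (SEP3tet) lay in protein-coding genes unshifted, 54.7 to 64.0% and 54.3 to 64.0% shifted. The smallest shift was 1 kb, so the check cannot show an offset shorter than that. No sequence was used here. Peaks were shared where they overlapped by at least 1 bp.

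The 92 genes and both gene lists were chosen with earlier results of these data known; 88 of the 90 targets matched the table by symbol as well as by locus. Named are every bound microRNA gene, per family the target of highest fold in each line, and every bound machinery gene; TOE2, HYL1, SE, HEN1 and HST were named after their values were seen. Replicates have no values of their own in the lists, so no test across samples was possible and none was made. Intervals are exact (Clopper-Pearson, scipy 1.17.1); depth is unknown. Window assignment was tested on simulated summits.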

Additional observations from a re-analysis of the deposited data

How the results depend on the processing

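Of 87 recomputed summary values, 63 stayed within 1.5 times the reported value (medians: unchanged) and 24 did not; the cause was not tested beyond what each setting removes. Within 1 kb, 7 conserved microRNA genes were bound in SEP3wt, 15 in SEP3tet, 6 in both and 9 in SEP3tet only. The last 2 were 6.52% and 9.78%, beside 6.88% and 5.46% of protein-coding genes. By nearest gene the counts were 9, 15, 9 and 6, with 0 in SEP3wt only. Here both lines held 9.78% and SEP3tet only 6.52%, beside 5.42% and 4.29% of protein-coding genes. By nearest gene 21 targets were bound in SEP3wt, beside 6.17% of protein-coding genes. With peaks of −log10 q of at least 10, 6 were bound in SEP3wt (6.52%, beside 4.60% of protein-coding genes) and 15 in SEP3tet (16.3%, beside 7.76%). In both were 6, in SEP3tet only 9 and in SEP3wt only 0, without a share taken for protein-coding genes. In that setting 13 targets were bound in SEP3wt and 22 in SEP3tet, beside the same 4.60% and 7.76%, and 0 machinery genes in SEP3tet. With equal numbers of strongest peaks 25 were bound in SEP3tet (27.2%, beside 14.6% of protein-coding genes) and 5 in SEP3tet only. MIR398b was kept there at the lowest −log10 q retained, 5.21. With 5 kb, 1 machinery gene was bound in SEP3wt (beside 19.7% of protein-coding genes), and around the midpoint 1 in SEP3tet (beside 15.8%). When sharing needed summits within 100 bp, line-only SEP3wt peaks at these genes rose from 1 to 4 of 25. In the whole SEP3wt list the shared peaks fell from 1884 to 1584 of 2225, so line-only peaks rose there as well. The median strongest fold became 3.59 (SEP3wt) and 4.33 (SEP3tet) with the summit nearest to the gene, which changed 5 of 56 values per gene and line. Leaving out summits in coding genes, chosen after seeing the data, left 18 (19.6%, beside 7.82% of protein-coding genes) and 29 (31.5%, beside 13.4%). This setting removes the summits in a protein-coding gene's own body, whereas no summit lay in a microRNA gene itself. It therefore lowers the protein-coding share by its design, and these shares are not a like comparison. Leaving out peaks over 1 kb left 21 (22.8%, beside 12.8%) and 34 (37.0%, beside 20.6%). No paired analysis was possible because the lists hold no value per replicate; for the same reason no replicate was left out.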

Other observations

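Among the other 234 microRNA genes of the table, 19 had a SEP3wt and 29 a SEP3tet summit within 3 kb, but the microRNA gene was the nearest gene for only 1 and 4 of them. Strong examples were MIR847, with folds of 7.29 in SEP3wt and 8.61 in SEP3tet, and MIR779, with 8.64 and 5.57. These summits lay 1 to 3 kb away, each with another gene nearer. MIR779 also had a weaker SEP3tet-only peak of fold 2.93 within 1 kb, with MIR779 as its nearest gene. MIR391, a relative of the MIR390 genes that the symbol rule leaves out, had folds of 3.87 in SEP3wt and 4.04 in SEP3tet, also with another gene nearer. MIR858a, whose product limits MYB regulators of flavonoid synthesis, had a SEP3tet-only peak of fold 5.43 within 1 kb, with MIR858a as its nearest gene. MIR824, whose product limits the MADS-box gene AGL16, had a SEP3tet-only peak of fold 3.60, with another gene nearer. These genes were named after their values were seen.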
